A study of Mus musculus with 9 samples.

Results

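The matrix metalloproteinases (MMPs), the ADAM sheddases and their TIMP inhibitors were followed here through 10 genes, which were taken by symbol from the 54532 genes of the deposited expression table. They comprised 6 matrix metalloproteinases (Mmp8, Mmp9, Mmp12, Mmp13, Mmp14 and Mmp19), 2 ADAMs (Adam8 and Adam17) and 2 tissue inhibitors (Timp1 and Timp2). All libraries came from RAW264.7, a virus-transformed mouse macrophage line of wild-type genotype in the labels, so the data describe 1 cell line in culture. The control group was untreated, and its time in culture is not given in the labels. The LPS group received lipopolysaccharide, a bacterial cell-wall component, at 1 μg/ml for 6 h. The LPS + G-CDs group received the same LPS together with 400 μg/ml of G-CDs, carbon dots prepared from licorice (Glycyrrhiza), for 6 h. The titles of these last libraries name G-CDs, while their treatment label lists LPS only. Each group held 3 libraries, with between 14752400 and 17312255 reads on genes per library. The labels do not say that replicates were separate cultures, so p-values measure the spread between these samples, which may be technical.

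MMPs are zinc-dependent proteases that are made as inactive precursors and cleave collagens, elastin, other matrix proteins and many secreted signals. ADAMs are related proteases, anchored in the membrane, that cut the outer domains of surface proteins loose, and ADAM17 is the enzyme that releases TNF from macrophages. TIMPs bind the active site of MMPs and block it, so MMP activity depends on protease and inhibitor together. Macrophages are a main source of MMP9 and MMP12 in inflamed tissue, and their MMP genes are known to respond to bacterial products.

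The comparisons asked how LPS changed these genes and whether G-CDs changed them further. The levels are FPKM, reads per length of gene and per library size. The library size behind the deposited values was 1.108 to 1.14 times the reads on genes in control, 0.929 to 0.936 times with LPS and 0.88 to 0.98 times with LPS + G-CDs, so it differed between groups. In FPKM, Mmp9 and Timp1 rose with LPS, and Mmp9 was the 1 tested member called lower with G-CDs than with LPS alone. Of the 10 members, 4 (Mmp9, Adam8, Adam17 and Timp1) had FPKM values of 1 or more in 3 or more libraries and entered the test, which covered 11585 genes. Another 4 (Mmp12, Mmp13, Mmp14 and Mmp19) lay below that filter with at least 10 reads over the 9 libraries, and 2 (Mmp8 and Timp2) had 0 or 1 read. Mmp9 passed the filter only through the LPS-treated libraries, so its rise over control is a description of its level as much as a test.

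In the GRCm38 build Mmp13, Mmp12 and Mmp8 lie near each other on chromosome 9, all on the plus strand, at 7272514 to 7283331, 7344381 to 7369499 and 7558456 to 7568485. Mmp9 lies on chromosome 2 (164940780 to 164955850, plus strand), Mmp14 on chromosome 14 (54431612 to 54445364, plus strand) and Mmp19 on chromosome 10 (128790910 to 128800824, plus strand). Adam8 lies on chromosome 7 (139978932 to 139992562, minus strand) and Adam17 on chromosome 12 (21323509 to 21373632, minus strand). Timp1 lies on chromosome X (20870166 to 20874735, plus strand) and Timp2 on chromosome 11 (118301069 to 118355740, minus strand).

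Promoter sequence, the 250 bases before the annotated start, was at hand for 8 of the 10 members from RefSeq (GRCm38.p6), and not for Mmp9 and Mmp19. A set of 4 windows is shown, since Mmp12, Mmp13 and Mmp14 went from 0 to 3 reads per control library to at least 21 reads per LPS library and Timp1 is the abundant inhibitor. Each runs 5′ to 3′ on the plus strand, and capitals mark a match to the AP-1 motif TGANTCA on either strand.
Mmp13, chr9:7272264-7272513: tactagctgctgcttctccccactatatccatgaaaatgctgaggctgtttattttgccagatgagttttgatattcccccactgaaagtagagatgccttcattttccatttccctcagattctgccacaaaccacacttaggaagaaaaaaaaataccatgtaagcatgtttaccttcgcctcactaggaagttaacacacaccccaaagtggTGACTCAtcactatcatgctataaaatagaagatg
Mmp12, a second start, chr9:7347124-7347373: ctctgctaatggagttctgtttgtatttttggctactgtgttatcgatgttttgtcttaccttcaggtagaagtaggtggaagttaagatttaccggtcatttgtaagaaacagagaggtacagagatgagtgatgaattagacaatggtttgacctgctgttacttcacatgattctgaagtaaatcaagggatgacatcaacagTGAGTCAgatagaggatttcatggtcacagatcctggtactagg
Mmp14, chr14:54431348-54431597: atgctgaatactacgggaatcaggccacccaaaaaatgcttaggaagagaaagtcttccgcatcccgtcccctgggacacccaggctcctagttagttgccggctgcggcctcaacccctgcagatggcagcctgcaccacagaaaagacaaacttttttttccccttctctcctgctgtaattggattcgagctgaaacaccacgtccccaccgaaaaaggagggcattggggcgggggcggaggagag
Timp1, chrX:20869916-20870165: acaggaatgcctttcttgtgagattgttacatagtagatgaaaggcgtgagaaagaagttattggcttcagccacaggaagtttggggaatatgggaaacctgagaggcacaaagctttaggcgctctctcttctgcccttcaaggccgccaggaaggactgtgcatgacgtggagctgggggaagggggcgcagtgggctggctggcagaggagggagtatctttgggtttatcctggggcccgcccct

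The AP-1 letters began 35 bases before the Mmp13 start, as TGACTCA, and 44 bases before the second Mmp12 start, as TGAGTCA. Of 32851 promoter windows of this length, 6.75% held the motif. The antioxidant response element TGACNNNGC, which is bound by Nrf2 and whose first letters AP-1 sites can share, was found in 10.2% of the windows and in 1 member, Timp2, where 203 of the 250 bases lie in annotated exons of GENCODE M21, so that window is not all upstream sequence. An NF-kB motif was found in 7.25% of the windows and in 1 member, the first start of Mmp12. The windows of Mmp8, Mmp14, Adam8, Adam17 and Timp1 held none of these letters. A match describes the letters only and is not a bound site.

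Mmp9 encodes gelatinase B, which cuts denatured and basement-membrane collagen. Its FPKM was 0.588, 0.614 and 0.413 in control libraries 1 to 3. It was 10.5, 10.7 and 9.87 with LPS and 4.59, 5.77 and 4.75 with LPS + G-CDs. The 3 groups did not overlap, with LPS highest, control lowest and LPS + G-CDs between them. The values rest on 26 to 39 reads per control library, 508 to 521 per LPS library and 235 to 339 per LPS + G-CDs library.

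With LPS the mean Mmp9 FPKM rose from 0.538 ± 0.109 to 10.3 ± 0.411 (SD, n = 3), 19.2 times the control level. The log2 fold change of FPKM + 1 was 2.88 (SE 0.119, limma adjusted p = 3.5e-07). With G-CDs the mean was 5.04 ± 0.638, which is 48.7% of the LPS level. That log2 fold change was -0.91 (SE 0.119, 95% interval -1.18 to -0.64, limma adjusted p = 0.018). Of all genes tested, 0.242% were called lower in this comparison and 0.25% higher. Mmp9 also met the looser limit of p under 0.01 and over 1.5-fold, which 1.24% of genes met in the lower direction. It was still 9.36 times the control level with G-CDs (log2 fold change 1.97, limma adjusted p = 4.5e-06). In bulk RNA, fewer cells carrying a transcript and less of it per cell cannot be told apart.

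The size of the Mmp9 difference between LPS + G-CDs and LPS was steadier than its call. It was negative under each of 17 alternative settings, between -1.15 and -0.86, and was called under 9 of them. The adjusted p was 0.13, 0.14 and 0.083 without LPS libraries 1, 2 and 3, and 0.061 and 0.056 without LPS + G-CDs libraries 2 and 3. It was 0.03 without LPS + G-CDs library 1. The limma adjusted p was also 0.064 with a pseudocount of 0.1, 0.081 after rescaling to TPM and 0.055 with the 6 libraries of the comparison alone.

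**Figure D1:**
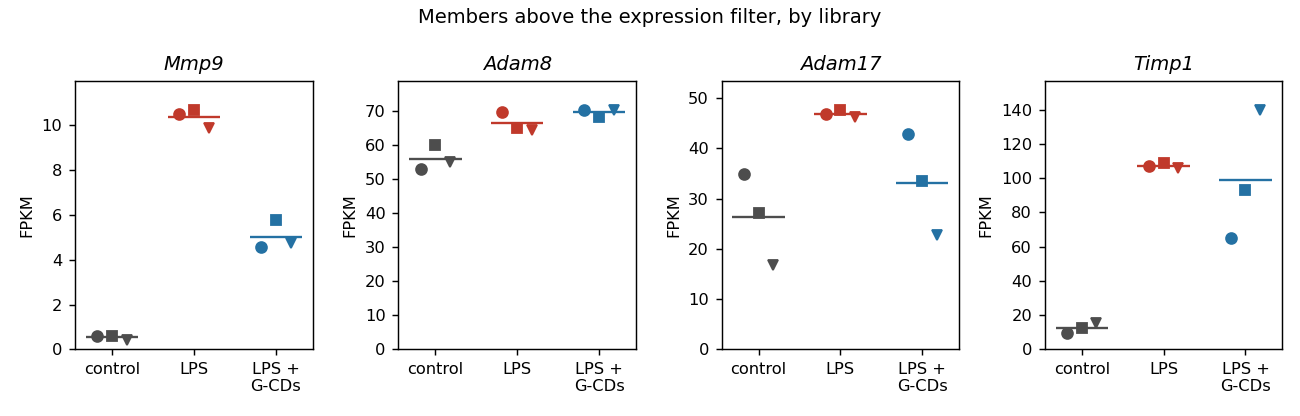
FPKM (linear axis from 0, a scale of its own in each panel) of the 4 members above the filter in the 3 libraries of each group, where circles, squares and triangles are replicates 1, 2 and 3 and bars are means. Mmp9 sits at 9.87 to 10.7 with LPS and 4.59 to 5.77 with LPS + G-CDs, while Adam17 and Timp1 spread widely in the LPS + G-CDs group (22.7 to 42.9 and 64.8 to 140).

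Mmp12, the macrophage elastase, and Mmp13, a collagenase, were near absent in control cells and detected with LPS. Mmp12 had 0, 1 and 0 reads in control, 24, 40 and 22 with LPS, and 14, 6 and 6 with LPS + G-CDs. Mmp13 had 0, 3 and 0 reads in control, 30, 28 and 21 with LPS, and 5, 6 and 1 with LPS + G-CDs. For both genes all LPS libraries lay above all others, and for Mmp13 the LPS + G-CDs libraries overlapped the control libraries.

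Mmp14 encodes the membrane-anchored collagenase that activates the MMP2 precursor at the cell surface. It had 0 reads in each control library, 47, 30 and 31 with LPS, and 11, 21 and 15 with LPS + G-CDs, so the 3 groups did not overlap. These levels were low, as the mean FPKM with LPS was 0.283 ± 0.103 for Mmp12, 0.704 ± 0.144 for Mmp13 and 0.431 ± 0.121 for Mmp14 (SD, n = 3). With LPS + G-CDs the means were 0.0809 ± 0.046, 0.097 ± 0.061 and 0.173 ± 0.0426. These are 28.6%, 13.8% and 40.1% of the LPS means.

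**Figure D2:**
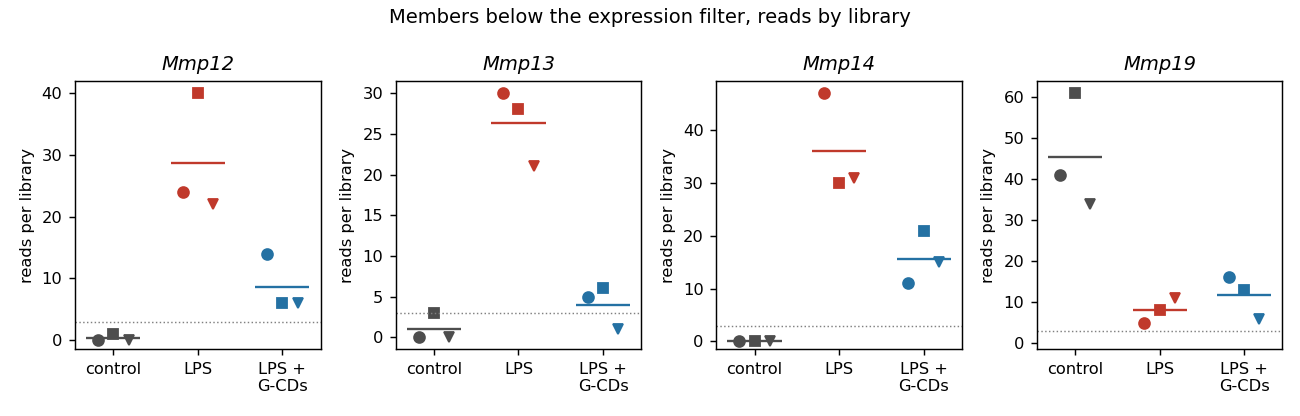
Reads per library (linear axis, a scale of its own in each panel) recovered for the 4 members below the expression filter, where symbols are replicates 1, 2 and 3, bars are group means and the dotted line marks 3 reads. Mmp12, Mmp13 and Mmp14 are highest in the LPS libraries, and Mmp19 is highest in the control libraries (34 to 61 reads).

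Counting error alone set wide limits on these ratios. FPKM of Mmp12 with LPS rested on 86 reads against 1 in control, a ratio of 109 (exact 95% interval 19.1 to 4370). For Mmp13 it was 79 reads against 3, a ratio of 33.5 (11 to 166). Mmp14 was at least 15.3-fold higher with LPS and at least 6.13-fold higher with LPS + G-CDs than control, taking 3 reads per control library as the limit that 0 reads allow. With G-CDs the ratio to LPS was 0.283 (0.175 to 0.443) for Mmp12, 0.142 (0.0704 to 0.262) for Mmp13 and 0.407 (0.282 to 0.578) for Mmp14. The intervals cover counting error only, not the spread between libraries.

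The spread between libraries was taken in with limma's voom on the recovered reads of 17835 genes with at least 10 reads, a fit added after the data had been seen. In LPS against control, 3 of the 4 low members were called higher and 1 lower. The log2 fold change was 5.64 for Mmp12 (adjusted p = 0.0005), 5.16 for Mmp13 (adjusted p = 0.001) and 6.50 for Mmp14 (adjusted p = 5.5e-05). Since the first 3 passed the read minimum only through LPS-treated libraries, these calls repeat their levels. Of 6287 such genes below the FPKM filter, 5.71% were called higher and 4.99% lower. Without overlap between groups stood 12.9% of them on the higher side and 14.1% on the lower.

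In LPS + G-CDs against LPS, voom called 0 of the 4 low members, with 3 at an unadjusted p under 0.05, as were 13.7% of the 17835 genes. The log2 fold change was -1.83 for Mmp12 (95% interval -2.90 to -0.77, adjusted p = 0.24). It was -2.88 for Mmp13 (-4.26 to -1.5, adjusted p = 0.13) and -1.27 for Mmp14 (-2.05 to -0.50, adjusted p = 0.27). Of the 6287 low genes, 0.0159% were called higher and 0% lower. The test on log2(FPKM + 1) with no filter called 1 of the 4, Mmp13 (adjusted p = 0.029), beside 0.0917% of 25079 genes called lower and 0.0718% called higher in that fit. The 3 genes lay below LPS without overlap, as did 8.38% of these low genes, and 5.54% lay above.

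Against control, voom called Mmp12 (3.80, adjusted p = 0.011) and Mmp14 (5.23, adjusted p = 0.00043) higher with LPS + G-CDs, again for genes that passed the read minimum only through treated libraries. Mmp13 was at 2.28 (adjusted p = 0.14). Of the low genes 3.21% were called higher and 3.85% lower, and 9.15% and 12% did not overlap in each direction. On log2(FPKM + 1) with no filter the adjusted p was 0.35 for Mmp12 and 0.053 for Mmp14, so both calls depended on the read-based fit.

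Mmp19, a protease of basement-membrane proteins, went the other way. It had 41, 61 and 34 reads in control, 5, 8 and 11 with LPS, and 16, 13 and 6 with LPS + G-CDs. All control libraries lay above all treated ones, and both treated groups overlapped. The mean FPKM was 0.724 ± 0.254, 0.16 ± 0.056 and 0.219 ± 0.0962 (SD, n = 3), a ratio of 0.224 for LPS to control by reads (exact 95% interval 0.139 to 0.348). By voom it fell in both treated groups, at a log2 fold change from control of -2.095 with LPS (adjusted p = 0.0085) and -1.71 with LPS + G-CDs (adjusted p = 0.019). Between LPS + G-CDs and LPS the difference was 0.39 (95% interval -0.85 to 1.62, adjusted p = 0.74).

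The Mmp19 value is uncertain. Of its exon bases, 22.3% also belong to Tmem198b on the opposite strand, whose mean FPKM was 1.52, 0.648 and 0.914 in the 3 groups, and the library protocol does not mark strand. Reads of the pair cannot be told apart there.

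Mmp8, the collagenase known from neutrophils, had 0 reads in all 9 libraries. With 3 reads as the limit, an FPKM of 0.066 to 0.0896 would have been needed to show it, depending on the library. The neutrophil genes Ly6g, Mpo and Elane were at 0 in all 9 libraries as well. The neutrophil marker list had 1 of 6 genes over an FPKM of 1 in any library, S100a8, with group means of 0.218, 0.448 and 1.36. Its summed level was 0.154 to 0.638 in control, 0.198 to 0.73 with LPS and 0.797 to 2.15 with LPS + G-CDs. Macrophage markers were present, with 9 of 10 over a mean FPKM of 1 and a summed level of 2660 to 3660, 3870 to 4090 and 3250 to 5340. The T cell, B cell, fibroblast, epithelial and endothelial lists had 0 genes over an FPKM of 1.

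Adam17 is the main TNF-releasing sheddase. Its FPKM was 34.9, 27.1 and 16.8 in control, 46.9, 47.7 and 46.2 with LPS, and 42.9, 33.6 and 22.7 with LPS + G-CDs. The LPS libraries lay close together above all others, and the other groups overlapped each other. The mean rose with LPS from 26.3 ± 9.09 to 46.9 ± 0.761 (SD, n = 3), 1.79 times, at a log2 fold change of 0.87 (SE 0.281, limma adjusted p = 0.043). With G-CDs it was 33.1 ± 10.2, or 70.5% of LPS, and the difference was not called (log2 fold change -0.54, 95% interval -1.18 to 0.10, adjusted p = 0.34). That value was -0.297 without LPS + G-CDs library 3 and -0.744 without library 1. Against control, LPS + G-CDs was at 0.34 (adjusted p = 0.43), and at -0.09 after TPM rescaling.

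The Adam17 call in LPS against control held under 10 of 17 alternatives, with a positive value between 0.59 and 1.10 in each. Without control library 3 the value was 0.59 (adjusted p = 0.12). The adjusted p was 0.075 without control library 2 and 0.11, 0.11 and 0.1 without LPS libraries 1, 2 and 3. It was 0.095 with no filter and 0.24 after TPM rescaling. Iah1 on the opposite strand covers 4.35% of the Adam17 exon bases.

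Adam8, a sheddase of leukocytes, had the highest level of the protease members in each group. Its FPKM was 52.8, 60.1 and 55 in control, 69.7, 64.9 and 64.4 with LPS, and 70.1, 68.2 and 70.3 with LPS + G-CDs. Both treated groups lay above control without overlap, while the treated groups overlapped each other. The means were 55.9 ± 3.77, 66.4 ± 2.93 and 69.6 ± 1.16 (SD, n = 3). The log2 fold change was 0.24 with LPS (SE 0.108, limma adjusted p = 0.12), 0.31 with LPS + G-CDs against control (adjusted p = 0.067) and 0.07 between both treated groups (95% interval -0.18 to 0.31, adjusted p = 0.71), none of them called. With the length trend removed Adam8 was called higher than control with LPS (0.27, adjusted p = 0.048, and 0.072 with the replicate block in the same fit) and with LPS + G-CDs (0.35, adjusted p = 0.02), and with no filter in the latter (adjusted p = 0.044). After TPM rescaling the signs turned, to -0.022, -0.122 and -0.10, none called.

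Timp1 encodes the inhibitor that binds MMP9 and its precursor. Its FPKM was 9.85, 12.6 and 15.4 in control, 107, 109 and 106 with LPS, and 64.8, 92.9 and 140 with LPS + G-CDs. Both treated groups lay far above control, and the LPS + G-CDs libraries fell on both sides of the LPS libraries. The mean rose with LPS from 12.6 ± 2.79 to 108 ± 1.5 (SD, n = 3), 8.53 times, at a log2 fold change of 3.02 (SE 0.262, limma adjusted p = 3.9e-05). With LPS + G-CDs it was 99.3 ± 38.2, 7.87 times control (log2 fold change 2.83, limma adjusted p = 6.9e-05). The difference between both treated groups was -0.18 (95% interval -0.78 to 0.41, adjusted p = 0.68), and 0.085 without LPS + G-CDs library 1. Under all 17 alternatives Timp1 was called higher than control in both treated groups.

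Timp2, the inhibitor that also links MMP14 to the MMP2 precursor, had 1 read, in control library 3. It would have needed an FPKM of 0.0411 to 0.0558 to reach 3 reads, so it was not detectable at this depth. A ratio of Mmp14 to Timp2 could therefore not be formed.

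Of the 4 members tested, 3 were called higher and 0 lower in LPS against control, beside 15.8% and 15.6% of all genes. In LPS + G-CDs against LPS, 0 were called higher and 1 lower, beside 0.25% and 0.242% of all genes. In LPS + G-CDs against control, 2 were called higher and 0 lower, beside 12.8% and 12.4% of all genes. Mmp9 is among those called higher than control in both comparisons. It passed the filter only through LPS-treated libraries, so these counts partly restate its level. Groups stood apart without overlap for 27.4% of all genes on the higher side and 25.1% on the lower in LPS against control. The shares were 12.9% and 15% in LPS + G-CDs against LPS, and 17.7% and 16.6% in LPS + G-CDs against control. The lack of overlap of Adam17 or Adam8 thus describes them but is common among genes. The comparisons share libraries and are not independent of each other.

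**Figure D3:**
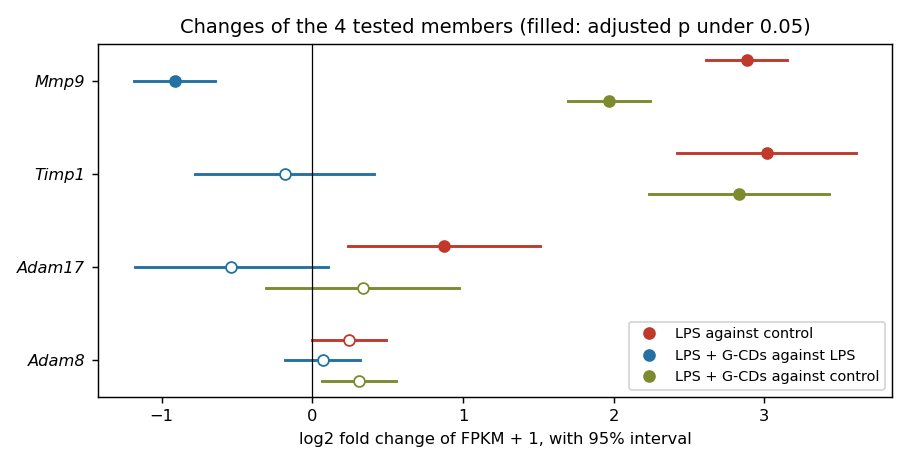
Log2 fold change of FPKM + 1 (linear axis) of the 4 tested members in 3 comparisons, where points are limma estimates, lines are 95% intervals and filled points have an adjusted p under 0.05. Mmp9 is the member with a called difference between LPS + G-CDs and LPS (-0.91), and the Adam8 estimates (0.07 to 0.31), whose signs turn after TPM rescaling, are open.

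The wide spread of Adam17 and Timp1 among LPS + G-CDs and control libraries ran along with gene length. In LPS + G-CDs library 1 the shortest of 5 equal length classes of genes lay at -0.26 from its group mean and the longest at 0.264, as medians of log2 values. Library 3 showed the opposite, at 0.304 and -0.257. Control library 3 also had short genes high and long genes low, at 0.172 and -0.216, and the 3 LPS libraries stayed between -0.028 and 0.023. Timp1, with 888 bases, deviated by -0.538, -0.026 and 0.564 in LPS + G-CDs libraries 1 to 3. Adam17, with 7154 bases, deviated by 0.413, 0.068 and -0.481. In control libraries 1 to 3 Timp1 deviated by -0.307, 0.015 and 0.292 and Adam17 by 0.456, 0.1 and -0.557. Mmp9, with 3539 bases, deviated by -0.105, 0.17 and -0.065 in LPS + G-CDs libraries.

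With the length trend removed from each library, Mmp9 was at -0.99 in LPS + G-CDs against LPS (adjusted p = 0.0067). Adam17 was then at -0.39 (adjusted p = 0.36) and Timp1 at -0.44 (adjusted p = 0.22), and neither was called.

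**Figure D4:**
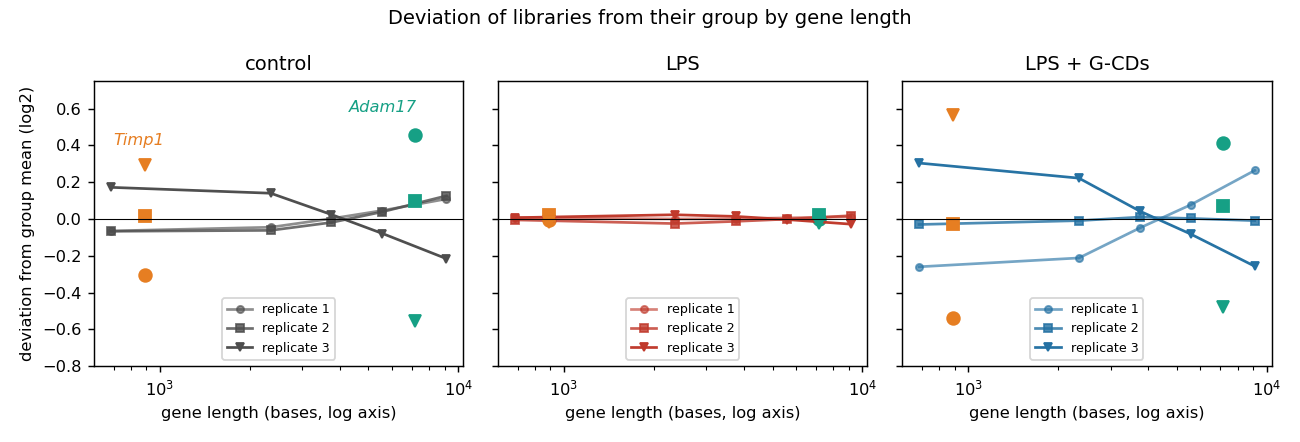
Median log2 deviation of genes from their group mean (y axis) by 5 equal classes of gene length (x axis, log scale) in each library, with lines for replicates 1, 2 and 3 and larger symbols of the same shapes for Timp1 (orange) and Adam17 (green). In LPS + G-CDs, library 1 runs from -0.26 to 0.264 and library 3 from 0.304 to -0.257, and Timp1 and Adam17 deviate in the direction of genes of their length, while LPS libraries lie near 0.

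The balance of protease and inhibitor was read as Mmp9 FPKM in percent of Timp1 FPKM, a ratio of RNA levels and not of proteins. It was 5.97%, 4.89% and 2.67% in control, 9.76%, 9.76% and 9.29% with LPS, and 7.09%, 6.21% and 3.38% with LPS + G-CDs. All LPS libraries lay above all others, and control and LPS + G-CDs overlapped. The means were 4.51 ± 1.68, 9.61 ± 0.273 and 5.56 ± 1.94 (SD, n = 3), and no test was run. With the length trend removed the means were 4.26 ± 1.52, 9.26 ± 0.344 and 5.88 ± 1.33, in the same order. Timp1 RNA was thus the more abundant of the pair, per length, in every library.

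Other genes of the family were mostly silent. None of 17 further MMPs passed the filter. The gelatinase Mmp2 reached the highest group mean among them. Its mean FPKM was 0.255 ± 0.083, 0.453 ± 0.173 and 0.475 ± 0.153 in control, LPS and LPS + G-CDs (SD, n = 3). In control Mmp23 was higher, at 0.293 ± 0.0622. None of 7 further inhibitors passed the filter, and the highest, Rarres1, reached a mean of 0.0358 with LPS + G-CDs. Of 22 further ADAM and ADAMTS proteases, 5 were tested, and with LPS 1 rose and 2 fell. Over all genes 15.8% were called higher and 15.6% lower with LPS. The median log2 fold change of the 5 was -0.62, beside 0.02 over all genes.

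Adam15, a membrane ADAM, fell from 61.3 ± 11.1 to 39 ± 0.915 FPKM (log2 fold change -0.62, limma adjusted p = 0.015). That call was lost without LPS library 1 (adjusted p = 0.052) or 2 (adjusted p = 0.058). Adamts10, a protease of the fibrillin network, fell from 6.31 ± 0.819 to 1.59 ± 0.0733 (-1.49, limma adjusted p = 5.5e-05). Adamts4, which cleaves aggrecan, rose from 0.0546 ± 0.0642 to 1.28 ± 0.0825 (1.11, limma adjusted p = 0.00023). Like Mmp9, it passed the filter only through LPS-treated libraries. Adam10, the other main sheddase, named here after its values were seen, had 45.2 ± 13.6 and 26.8 ± 1.8 FPKM in control and LPS and was not called (-0.70, limma adjusted p = 0.069). With LPS + G-CDs it had 23.7 ± 7.61 FPKM and was called lower than control (-0.91, limma adjusted p = 0.03), where 1 of the 5 rose, 3 fell and 1 was not called. Over all genes 12.8% were called higher and 12.4% lower in that comparison. With G-CDs, 0 of the 5 were called against LPS (median -0.19), and 0 had an unadjusted p under 0.05.

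Of 22 activators and trafficking partners, 17 were tested, and with LPS 8 rose, 5 fell and 4 were not called (median 0.37). Over all genes the median was 0.02, with 15.8% called higher and 15.6% lower. Plaur, the receptor of urokinase, the enzyme that makes the plasmin known to activate MMP precursors, rose from 19.3 ± 1.98 to 265 ± 17.7 FPKM (3.71, limma adjusted p = 3.4e-07). Furin, the convertase that matures MMP14 and ADAM17, rose from 7.67 ± 0.922 to 58.4 ± 2.06 (2.78, limma adjusted p = 1.3e-05). It had 38.8 ± 11.8 FPKM with LPS + G-CDs, a difference from LPS that was not called (-0.62, adjusted p = 0.27).

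Lcn2, a lipocalin that binds iron-carrying siderophores and was listed among the partners, rose from 0.115 ± 0.0552 to 15.3 ± 0.555 FPKM with LPS (3.88, limma adjusted p = 1.8e-07). It passed the filter only through treated libraries, so that p restates its level. It was the 1 gene of the list called in LPS + G-CDs against LPS, at 7.05 ± 1.55 FPKM (-1.04, limma adjusted p = 0.023), with no overlap. Without LPS libraries 1, 2 and 3 the adjusted p was 0.14, 0.14 and 0.09, and without LPS + G-CDs library 2 it was 0.14. It was also 0.12 with a pseudocount of 0.1, 0.055 with no filter and 0.077 with the 6 libraries alone, and the call held under 10 of 17 alternatives. Mmp9 and Lcn2 thus both stood lower with G-CDs in all 3 libraries, and both remained far above control. Rhbdf2 (iRhom2), which carries ADAM17 to the cell surface and was named after its values were seen, had 14.1 ± 1.72, 74.7 ± 2.08 and 48.1 ± 6.61 FPKM in the 3 groups. It rose with LPS (2.33, limma adjusted p = 3.6e-06) and was not called between the treated groups (-0.63, adjusted p = 0.13).

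Of 25 cell-surface proteins that ADAM17 or ADAM10 are known to cut, 16 were tested, and with LPS 10 rose, 4 fell and 2 were not called (median 1.05). Over all genes 15.8% were called higher and 15.6% lower. The 10 include genes that passed the filter only through treated libraries, so their calls restate their levels. Tnf, the classical ADAM17 substrate, rose from 53.3 ± 17.2 to 2510 ± 55.4 FPKM (5.59, limma adjusted p = 5.2e-07) and stood at 2620 ± 155 with G-CDs (0.06, 95% interval -0.49 to 0.61, adjusted p = 0.89). Its receptor gene Tnfrsf1b rose from 4.21 ± 0.525 to 145 ± 2.59 (4.81, limma adjusted p = 2.6e-08). It had 88.3 ± 10.4 with G-CDs, below LPS without overlap and not called (-0.71, adjusted p = 0.066). Cd40, a costimulatory receptor, rose from 0.431 ± 0.103 to 48.1 ± 3.04 (5.10, limma adjusted p = 2.1e-07), and it too passed the filter only through treated libraries. Sdc4, a heparan sulfate proteoglycan also listed among the partners, rose from 51.3 ± 10.6 to 354 ± 10.8 (2.78, limma adjusted p = 7.7e-06). With G-CDs, 0 of the 16 were called against LPS (median -0.11), and 4 of the 16 had an unadjusted p under 0.05, as did 15.2% of all genes.

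Of 20 matrix substrates 4 were tested, with 2 risen, 1 fallen and 1 not called with LPS (median 0.72). Over all genes 15.8% were called higher and 15.6% lower. Spp1, osteopontin, rose from 655 ± 115 to 5420 ± 202 FPKM (3.06, limma adjusted p = 1.2e-05) and had 4490 ± 671 with G-CDs (-0.28, adjusted p = 0.46). Lamc1, a laminin chain, rose from 11.4 ± 4.24 to 40.7 ± 1.61 (1.81, limma adjusted p = 0.0036). Nid2, a basement-membrane linker, fell from 3.53 ± 0.96 to 1.66 ± 0.309 (-0.75, limma adjusted p = 0.029). That call was lost without control library 1 or 2 or LPS library 2 or 3 (adjusted p 0.082 to 0.097), and with no filter (adjusted p = 0.078).

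**Figure D5:**
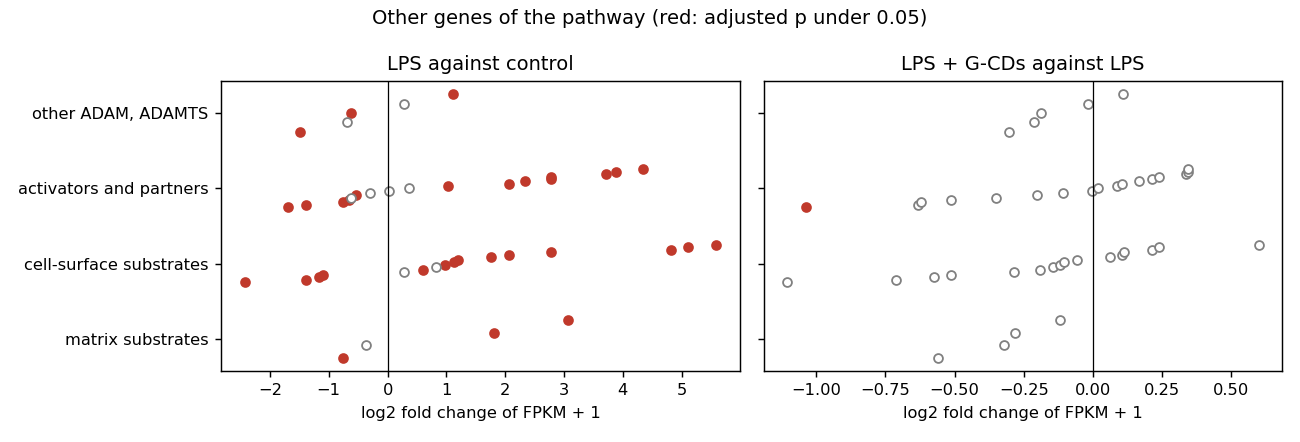
Log2 fold change of FPKM + 1 of tested genes in 4 lists of the pathway, with 1 point per gene, red where the adjusted p is under 0.05, and x axes that differ between panels. With LPS 8 of 17 partners and 10 of 16 cell-surface substrates rose, beside 15.8% of all genes called higher. With G-CDs against LPS 1 gene, Lcn2 at -1.04, is red, beside 0.242% of all genes called lower.

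The genes most like Mmp9 over the 9 libraries, by Pearson correlation of log2(FPKM + 1) with the members left out, were Pim2 (r = 0.9978), Lta (0.9972), Lix1 (0.9957), Actr3 (0.9939) and Rgs1 (0.9937). The correlation describes 9 libraries that fall into 3 groups, so it mostly restates the group levels. In control, LPS and LPS + G-CDs the mean FPKM of Lta, a TNF family cytokine gene, was 0.027, 13.6 and 5.82. Pim2, a kinase gene, had 4.99, 16.7 and 11.7. Each of the 5 was lowest in control and highest with LPS by its mean.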

How the data were processed

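Poly(A)-selected RNA of 9 libraries was sequenced on an Illumina instrument with a protocol that does not mark strand. The authors deposited FPKM values per gene and library with gene coordinates and lengths. The submitters' processing notes name GRCm38 and mm10, and the aligner and counter are not given in the sources used here. All value columns were mapped to samples by name. FPKM times gene length came out as whole reads (within 0.05 reads) for 100% of values, which gave reads and depth. These were used for voom and for exact 95% intervals and a floor of 3 reads, which cover counting error only. No count model served as the main test, since the deposited unit is FPKM.

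Genes with FPKM values of 1 or more in 3 or more libraries (11585 of 54532) were tested as log2(FPKM + 1) with limma 3.58.1 in R 4.3.3 (lmFit, eBayes with trend, 1 model of 9 libraries), with two-sided tests and Benjamini-Hochberg adjustment over all tested genes, called at 0.05. Fold changes on this scale understate changes of low genes. Python 3.11.15 with pandas 2.3.3 and numpy 2.4.6 prepared the tables. The tests were tested on simulated data. The members and gene lists were chosen with earlier results of these data known. All 10 members are named, and of each other list up to 4 genes with the largest called change with LPS, every gene called in LPS + G-CDs against LPS, the gene with the highest level, and the 5 genes most like Mmp9. A gene that this rule names is not reported here. Alternatives were a pseudocount of 0.1, no filter, a filter at FPKM 5, TPM, median-of-ratios scaling, eBayes without trend, 6 libraries alone, voom, removal of length trends, a block on the replicate number, and leaving out each library in turn. Voom on genes with at least 10 reads, and the ratio of Mmp9 to Timp1 without the length trend, were added after seeing the data.

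Deviations of same-numbered LPS and control libraries correlated at 0.103, 0.137 and 0.113, all over the limit of 0.1 set for pairing. Values this small do not establish that the numbers pair the libraries, and the main test used no pairing. The labels do not say what a number stands for. Gene positions were compared with GENCODE M21 and were equal for all 10 members. Protein sequences were not analysed here.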

Additional observations from a re-analysis of the deposited data

How the results depend on the processing

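Genes called in LPS + G-CDs against LPS numbered 57. They numbered 25 with a pseudocount of 0.1, 27 after TPM rescaling, 25 with the 6 libraries alone and 92 with the length trend removed. Leaving out 1 library gave 11 to 256, with 14, 12 and 21 without LPS libraries 1, 2 and 3 and 256, 11 and 29 without LPS + G-CDs libraries 1, 2 and 3. In LPS + G-CDs against control 2927 genes were called, 1789 with the 6 libraries alone and 1914 to 3245 with 1 library left out (1914 without LPS + G-CDs library 2). In LPS against control 3630 were called, and 2478 to 3292 with 1 library left out. The Mmp9 to Timp1 ratio with LPS was 9.26% with the length trend removed (9.61% as deposited). The cause of these shifts was not tested, and the fits with a library left out also had fewer samples.

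TPM rescaling shifted the median over all genes, on the log2 scale, by -0.25, to -0.2321, in LPS against control, by -0.15, to -0.1354, in LPS + G-CDs against LPS and by -0.40, to -0.3759, in LPS + G-CDs against control. It changed the split in LPS against control from 1827 higher and 1803 lower to 1003 and 3059, and in LPS + G-CDs against control from 1488 and 1439 to 761 and 3218. Under it Adam8 turned to -0.022, -0.1 (LPS + G-CDs against LPS) and -0.122 (LPS + G-CDs against control), and Adam17 to -0.09 in LPS + G-CDs against control. These values lie above the moved medians. Timp1 in LPS + G-CDs against LPS turned to 0.085 without LPS + G-CDs library 1, and lay between -0.466 and 0.085 with 1 library left out.

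With the replicate block the counts were 4104 in LPS against control, 53 in LPS + G-CDs against LPS and 3347 in LPS + G-CDs against control, and the block alone changed no member's call. Added to the fit with the length trend removed, it ended the Adam8 call in LPS against control (adjusted p = 0.072). Adam8 was called in LPS + G-CDs against control under 3 of 17 alternatives, with no filter (adjusted p = 0.044), with the length trend removed (adjusted p = 0.02) and with the block and the length trend removed (adjusted p = 0.035). In LPS against control it was called under 1, the length trend removed (adjusted p = 0.048). Same-numbered libraries correlated at 0.095, 0.08 and 0.143 for LPS + G-CDs and LPS, where each correlated best with its own number. For LPS + G-CDs and control they correlated at 0.28, 0.057 and 0.653, and LPS + G-CDs library 1 correlated better with control library 2 (0.504).

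Values of the 4 low members moved with the pseudocount and with voom, in the same direction. These genes had 0 to 61 reads per library, which sets the width of their intervals.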
